A study of Rattus norvegicus with 20 samples.

Results

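Dietary fatty acids reach the dorsal root ganglion (DRG) from the blood and have to be taken up, bound and coupled to coenzyme A before they can enter membranes. Transcripts of 10 genes that carry out these steps were examined in rats fed soy oil or fish oil: the uptake proteins Cd36 and Mfsd2a, the fatty acid-binding proteins Fabp3, Fabp4, Fabp5 and Fabp7, and the long-chain acyl-CoA synthetases Acsl1, Acsl3, Acsl4 and Acsl6. Members were taken by gene symbol and were chosen with earlier results of these data known. All 10 were found among the 39747 genes of the count table. Female Sprague-Dawley rats, 8 to 10 weeks old at the start, received a soy oil diet on the AIN-93G formula (SOD) or an isocaloric diet in which a fish oil rich in EPA and DHA took the place of most of the soy oil (FOD). After 4 weeks the left sciatic nerve was loosely ligated with chromic gut (chronic constriction injury, CCI) or only exposed (sham, CT). The 20 poly-A RNA-seq libraries comprised left DRG of 14 rats (sham: 4 SOD-CT and 3 FOD-CT; injured: 3 SOD-CCI and 4 FOD-CCI) and the right, contralateral DRG of 6 of the injured rats (3 on each diet). For SOD-CCI and FOD-CT, 1 planned sample each had been excluded by the study before library preparation. The study places DRG collection at 1 week after surgery, while its methods continue the diets for 4 weeks after surgery; the files do not settle how long the DRG had been exposed. Libraries held 22547190 to 54437581 counts, with a median of 29051399.

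Cd36 (fatty acid translocase) and Mfsd2a, which carries lysophosphatidylcholine esters of DHA across the blood-brain barrier, act at the cell surface. Fatty acid-binding proteins hold the insoluble chains in the cytosol and are known by the tissue in which each is abundant: heart and muscle for Fabp3, adipocytes and some capillary endothelium for Fabp4, skin for Fabp5, and brain glia and satellite glia of ganglia for Fabp7. Fabp5 is also known from sensory neurons that regenerate an axon. Acyl-CoA synthetases trap fatty acids in the cell as acyl-CoA, and differ in what they prefer: Acsl4 arachidonate and related polyunsaturated chains, which makes membranes susceptible to ferroptosis, and Acsl6 DHA, mainly in neurons and other brain cells.

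In 5 libraries marker transcripts of skeletal muscle or spinal cord were far above the rest, and the results that rest on them are given with and without these libraries. Skeletal muscle markers (12 of 12 found) took 12.7% of counts in SOD-CT replicate 1 and 2.86% in FOD-CT replicate 2, against at most 0.993% in the other libraries. Spinal cord glia markers (8 of 8 found) averaged 7.57 to 7.89 on the log2 CPM scale (CPM: counts scaled to the library total) in replicate 1 of FOD-CT, FOD-CCI and FOD-CCI-contralateral, against at most 2.13 elsewhere. In the last of these, 12 sensory neuron markers, present throughout the other libraries, averaged 3.55 log2 CPM, against 7.63 to 9.55 in the other 19 libraries. FOD-CCI replicate 1 went against its label: Atf3, induced in injured sensory neurons, was at 3.27 CPM there, against 202, 501 and 334 CPM in the other 3 FOD-CCI libraries and 263 to 333 CPM in SOD-CCI. The 5 libraries were set apart by name and not by a stated limit, and the other 15 are not free of muscle. Muscle markers took 0.993% of counts in FOD-CCI-contralateral replicate 3, 0.711% in SOD-CT replicate 4 and 0.273% in SOD-CCI-contralateral replicate 2. They took at most 0.0861% in the remaining 12. Without the 5 libraries FOD-CT keeps 1 library, and the spread behind its tests then comes from the other groups. In whole DRG, fewer cells of a type and less RNA per cell cannot be told apart.

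Per length, Fabp5 and Fabp7 were the most abundant members, and Fabp4 the least. On the FPKM scale, the median over 20 libraries was 431 for Fabp5, 173 for Fabp7, 59.0 for Fabp3 and 6.77 for Fabp4. Among the synthetases it was 46.4 FPKM for Acsl6, 39.9 for Acsl3, 21.8 for Acsl1 and 15.3 for Acsl4, and among the uptake genes 9.34 for Mfsd2a and 8.65 for Cd36. In the other 15 libraries, the ranges of Fabp5 (279 to 1109 FPKM) and Fabp7 (102 to 271 FPKM) did not overlap, and the lowest Fabp7 value lay above the highest Fabp3 value (98.6 FPKM). Fabp3, Acsl6 and Acsl3 overlapped in range, Acsl3 (from 30.1 FPKM) stayed above Acsl1 (up to 26.2 FPKM), and Acsl1, Acsl4, Mfsd2a, Cd36 and Fabp4 each overlapped with the next. The members also differed in how steady they were: the highest of these 15 libraries was 1.61 times the lowest for Acsl1, 1.62 times for Mfsd2a and 1.87 times for Acsl3, but 8.45 times for Cd36 and 69.7 times for Fabp4. With all 20 libraries the ratio became 55.2 for Cd36 and 28.4 for Fabp3, both set by SOD-CT replicate 1 at the top.

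**Figure D1:**
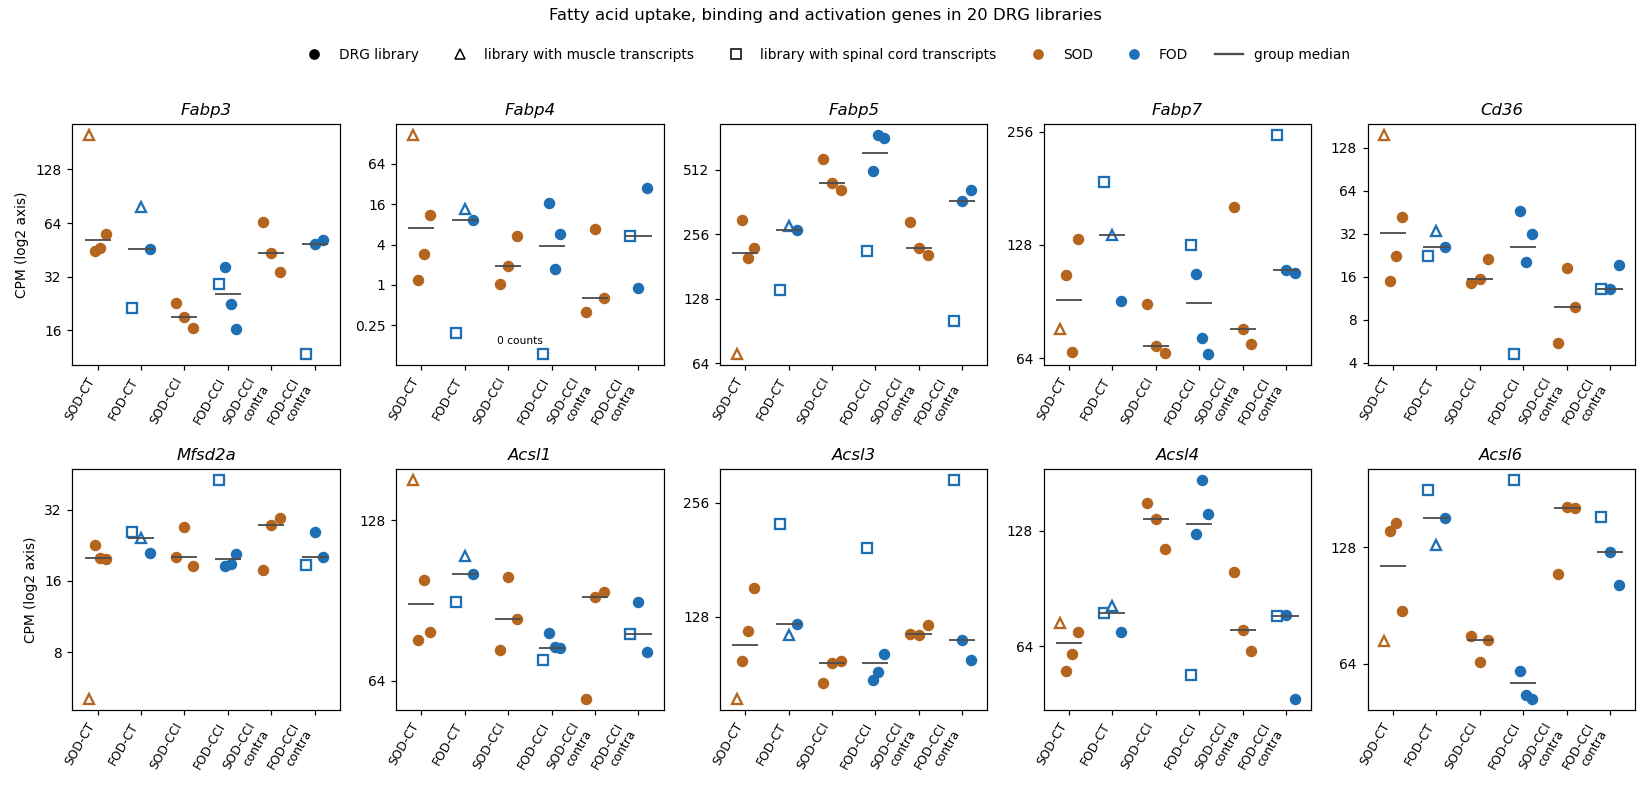
CPM of the 10 members in each library on a log2 axis, by group (bars: group medians; open triangles: libraries with muscle transcripts; open squares: libraries with spinal cord transcripts; the single Fabp4 library without counts is drawn at the bottom). SOD-CT replicate 1 is the highest library for Fabp3, Fabp4, Cd36 and Acsl1, and Fabp5 is above 410 CPM in all CCI libraries other than FOD-CCI replicate 1.

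Promoter sequence is shown for Fabp3, Acsl4 and Acsl6, which differed between injured and uninjured DRG in some fits below and have an entry in RefSeq (GRCr8). Of the 10 members 7 have an entry, and Fabp4, Fabp5 and Mfsd2a do not. Cd36 has an entry and also differed in SOD rats with all libraries, but its sequence is not shown. Each line holds the 250 bases before the annotated start, 5′ to 3′ on the gene's strand, with capitals marking a CRE core (TGACGT) or a GC box (GGGCGG, or its complement where it lies on the other strand; overlapping matches run together).
Fabp3 (chr5:147935875-147936124, plus strand): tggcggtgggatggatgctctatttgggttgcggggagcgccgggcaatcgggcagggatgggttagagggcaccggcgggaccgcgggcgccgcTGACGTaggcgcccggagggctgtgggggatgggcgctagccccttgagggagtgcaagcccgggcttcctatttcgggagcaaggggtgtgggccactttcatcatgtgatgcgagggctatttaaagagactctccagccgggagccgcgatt
Acsl4 (chrX:110803262-110803511, minus strand): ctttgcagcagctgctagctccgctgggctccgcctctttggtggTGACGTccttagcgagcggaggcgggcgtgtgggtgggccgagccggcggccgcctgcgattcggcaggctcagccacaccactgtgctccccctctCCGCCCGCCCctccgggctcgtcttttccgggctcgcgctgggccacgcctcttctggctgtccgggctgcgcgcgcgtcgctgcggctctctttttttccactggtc
Acsl6 (chr10:38951911-38952160, plus strand): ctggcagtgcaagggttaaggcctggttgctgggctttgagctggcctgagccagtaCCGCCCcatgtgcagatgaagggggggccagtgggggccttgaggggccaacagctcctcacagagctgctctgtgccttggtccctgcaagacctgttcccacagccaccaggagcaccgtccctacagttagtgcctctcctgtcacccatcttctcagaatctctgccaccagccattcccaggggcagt
A CRE core was found in the promoters of Fabp3 and Acsl4, and in 6.95% of all 33469 promoters of this length. GC boxes, present in 30.5% of promoters, were found in Acsl4, Acsl6, Fabp7 and Acsl3, the last with 4. A TATA box (TATAAA; 12.9% of promoters) was found in Cd36 alone among the 7. The AP-1 motif (TGANTCA; 6.34%) and the PPAR direct repeat (0.0508%) had no match in these windows. Both strands were searched, and a match is a description of the letters and not a binding site.

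To determine whether fish oil altered these transcripts in sham DRG, FOD-CT was compared with SOD-CT. No member passed the test, and neither did any of the 14484 genes (0% called) in edgeR. A call here and below needed a 1.2-fold difference or more with an adjusted p (Benjamini–Hochberg, over all genes) no higher than 0.1. DESeq2 also called 0 genes. At an unadjusted p under 0.05, edgeR gave 491 genes (3.39%) and 0 of the 9 members tested; Fabp4 was below the count filter. Adjusted p of the members ran from 0.965 to 0.997, and their median log2FC was 0.17, against -0.01 over all genes tested; 6 of 9 were above 0, as were 48.6% of genes. No member separated the groups in CPM, as 3.01% of genes did. Without the 5 libraries Acsl1, Acsl4 and Acsl6 did, as 37.4% of genes, with a lone FOD-CT library.

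The 2 lowest estimates in sham DRG, both toward lower expression in FOD-CT, rested on a single library. Cd36 was at 157, 14.9, 22.5 and 41.9 CPM in SOD-CT and 22.5, 33.4 and 25.7 CPM in FOD-CT. All 3 FOD-CT libraries lay within the SOD-CT range, and the library at 157 CPM was the one richest in muscle transcripts. The log2FC was -1.57 (SE 0.87) with all libraries and 0.04 without SOD-CT replicate 1. Fabp3 was at 199.9, 44.8, 46.5 and 55.7 CPM in SOD-CT and 21.4, 79.0 and 45.7 CPM in FOD-CT. Its 2 highest values came from the muscle libraries and its lowest from a spinal cord library. The log2FC of Fabp3 moved from -1.20 (SE 0.67) to 0.03 without SOD-CT replicate 1, and was -0.12 (SE 0.42) without all 5 libraries. The part of muscle RNA in these values was not tested.

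The other members had smaller estimates. Fabp5 was at 70.9, 299.6, 199 and 220.2 CPM in SOD-CT and 141, 278.5 and 269 CPM in FOD-CT (log2FC 0.17, SE 0.42), the lowest value of each group being a library with muscle or spinal cord transcripts. For Acsl4 the 95% interval of the log2FC ran from -0.71 to 0.76 around 0.02. Acsl6 gave 0.33 (SE 0.38), Acsl3 0.31 (SE 0.30), Fabp7 0.36 (SE 0.31), Mfsd2a 0.43 (SE 0.36) and Acsl1 -0.28 (SE 0.34). Without the 5 libraries Fabp7, Acsl3 and Mfsd2a turned to -0.20, -0.02 and -0.01 and Acsl1 to 0.25, while Fabp5 stayed at 0.15 and Acsl6 at 0.28.

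In injured DRG, the comparison of FOD-CCI with SOD-CCI addressed the effect of fish oil after nerve injury. No member was called, nor was any of 14484 genes in edgeR (0% called, 782 genes or 5.4% at an unadjusted p under 0.05, none of them a member); DESeq2 called 2 genes, no member, and without the 5 libraries 481 genes (3.13%), again no member. Adjusted p of the 9 members tested lay between 0.862 and 0.984, and 7 of them had a log2FC above 0, as did 54.3% of genes. The median log2FC was 0.38 for the members and 0.04 for all genes. No member separated the groups in CPM, against 15.2% of genes; without the libraries with other tissue Acsl6 did, as 24.2% of genes.

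Fabp5, the most abundant member, was at 572, 442 and 411 CPM in SOD-CCI and 214, 507, 744 and 719 CPM in FOD-CCI. The FOD-CCI values lay on both sides of the SOD-CCI values, with the lowest from replicate 1. The log2FC was 0.26 (SE 0.42). Leaving out the 5 libraries, it was 0.53 (95% interval 0.04 to 1.02; edgeR adjusted p = 0.392). Cd36 was at 14.5, 15.5 and 21.3 CPM in SOD-CCI and 4.65, 46.2, 20.4 and 31.7 CPM in FOD-CCI, with the lowest value again from replicate 1. Its log2FC was 0.66 (SE 0.85), and 1.01 (95% interval 0.11 to 1.91; edgeR adjusted p = 0.389) without these libraries. Macrophage markers (9 of 9 found), a cell type that expresses Cd36, averaged 4.42 to 5.65 log2 CPM in the remaining 3 FOD-CCI libraries and 3.89 to 4.58 in SOD-CCI. Red cell markers (5 of 5 found) averaged 9.67 log2 CPM in FOD-CCI replicate 2, the library at 46.2 CPM of Cd36. They averaged 3.20 to 5.49 in the other FOD-CCI libraries and 1.88 to 4.14 in SOD-CCI. The part of either list in the result was not tested.

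No synthetase passed the test by diet in injured DRG. Acsl4 was at 151, 137 and 115 CPM in SOD-CCI and 53.8, 126, 174 and 141 CPM in FOD-CCI. FOD-CCI replicate 1 was below all SOD-CCI values, and the other 3 overlapped with them. The log2FC was -0.06 (SE 0.34, 95% interval -0.80 to 0.68) with all libraries. Without the libraries with other tissue it was 0.19 (95% interval -0.23 to 0.61). A rise of Acsl4 by more than 0.61 on the log2 scale lay outside the second interval but, up to 0.68, inside the first. Falls down to -0.80 also lay inside the first. Acsl6 was at 75.4, 64.8 and 73.6 CPM in SOD-CCI and 191, 61.5, 53.1 and 52.02 CPM in FOD-CCI. FOD-CCI replicates 2 to 4 were below all SOD-CCI values and replicate 1 was above. Sensory neuron markers averaged lower in all 4 FOD-CCI libraries, at 8.52 log2 CPM in replicate 1 and 8.59 to 8.90 in the others, against 9.26 to 9.35 in SOD-CCI. Their share of counts overlapped, at 1.65% to 2.21% in FOD-CCI and 2.09% to 2.46% in SOD-CCI. The markers were not uniform: Scn10a and Avil were lower in all 4, whereas Tubb3 and Prph were highest in FOD-CCI replicate 3. The part of these markers in the result was not tested. The log2FC of Acsl6 was accordingly 0.38 (SE 0.39) with, and -0.29 (SE 0.19, edgeR adjusted p = 0.565) without, the libraries with other tissue. Acsl3 gave 0.41 and 0.07, Acsl1 -0.14 and -0.10, Fabp7 0.39 and 0.21, Fabp3 0.48 and 0.43, and Mfsd2a 0.26 and -0.11 in the same order.

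In contralateral DRG, FOD and SOD rats were compared with 3 libraries each. None of the 10 members and none of 13590 genes was called in edgeR (0% called; 1292 genes or 9.51%, and 0 members, at an unadjusted p under 0.05), and DESeq2 called 202 genes, 0 of them members. Without the spinal cord library edgeR called 17 genes (0.12%) and DESeq2 441 (3.1%), with 0 members. With all libraries the median log2FC of the members was 0.14, with 5 of 10 above 0, against 51.3% of genes. Fabp4, the least precise, was at 0.395, 6.89 and 0.649 CPM in SOD and 5.41, 0.910 and 27.5 CPM in FOD, and had a log2FC of 2.11 (95% interval -0.88 to 5.10). The highest value of each diet came from the library of that diet with the most muscle transcripts, 0.273% of counts in SOD and 0.993% in FOD, and their part was not tested. Fabp5 was at 291.5, 220.3 and 204 CPM in SOD and 100.6, 366 and 409.5 CPM in FOD. The FOD value below SOD belonged to the library with spinal cord and few neuronal transcripts, and the other 2 FOD values lay above all 3 SOD values. The log2FC of Fabp5 was 0.30 (SE 0.49), and 0.72 (95% interval 0.14 to 1.299; edgeR adjusted p = 0.378) without the spinal cord library. Acsl4 (-0.24), Acsl6 (-0.21), Mfsd2a (-0.21), Acsl1 (-0.03), Fabp3 (-0.34), Cd36 (0.45), Acsl3 (0.48) and Fabp7 (0.56) had adjusted p from 0.677 to 0.977, and no member separated the groups, as 17.3% of genes did. Without the spinal cord library Fabp5 and Acsl3 did, as 29.9% of genes.

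**Figure D2:**
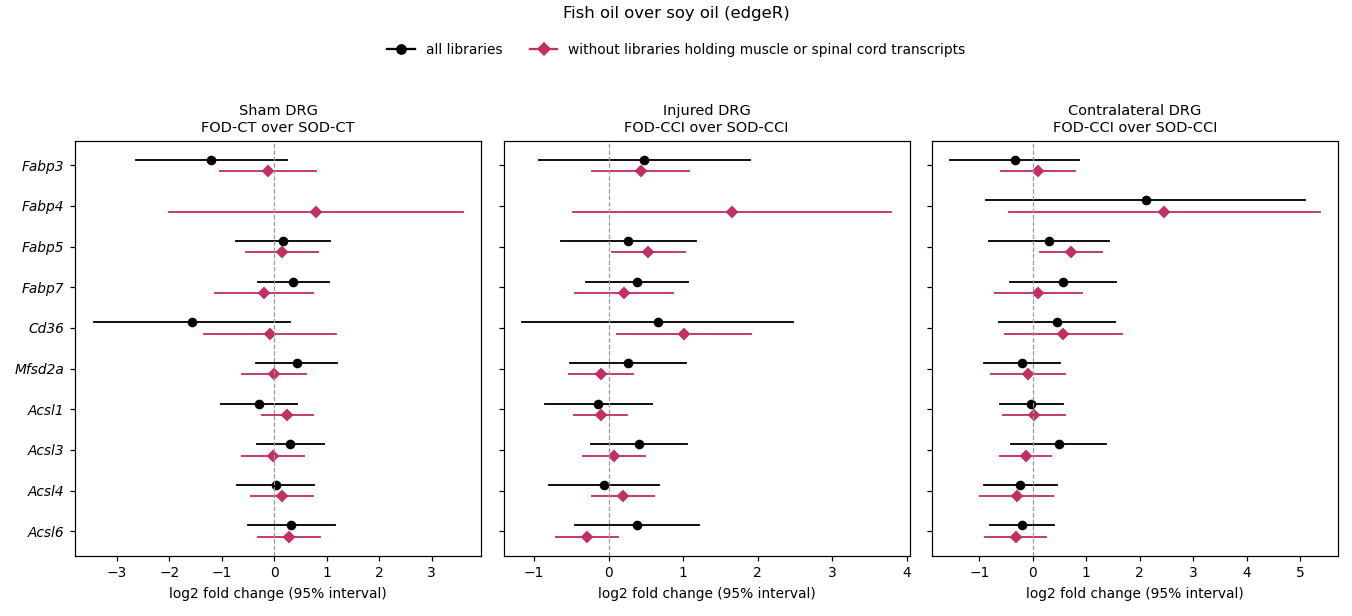
Log2 fold change of FOD over SOD with its 95% interval for each member in sham, injured and contralateral DRG, with all libraries (black circles) and without those highest in muscle or spinal cord transcripts (red diamonds). With all libraries every interval includes 0; Fabp4 was not tested with all libraries in left DRG.

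Injury was then compared with sham surgery within each diet. With all libraries, each of the 9 members tested had an estimate of the same sign under both diets. Fabp5, Acsl4 and Mfsd2a were higher in CCI than in sham DRG, and Fabp3, Fabp7, Cd36, Acsl1, Acsl3 and Acsl6 were lower. The share of all genes with the same sign under both diets was not computed. Calls depended on the libraries with other tissue. In SOD rats no member was called and no gene of 14484 was (0% called in edgeR), while 4 of 9 members had an unadjusted p under 0.05, as did 2006 genes (13.8%). DESeq2 called 594 genes (4.1%), among them the members Fabp3 and Cd36. Without the 5 libraries edgeR called 160 of 15386 genes (1.04%) and the members Acsl4 and Fabp3, and 5 members did not overlap between groups, as 23.1% of genes.

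Fabp5 in SOD-CCI (411 to 572 CPM) exceeded all SOD-CT values (70.9 to 299.6 CPM), with a log2FC of 1.17 (SE 0.42, edgeR adjusted p = 0.294). It shared this separation upward with Acsl4, among 11.8% of genes. Acsl4 was at 73.6, 55.1, 61.1 and 69.7 CPM in SOD-CT, below the 115 to 151 CPM of SOD-CCI, a log2FC of 0.81 (SE 0.34, edgeR adjusted p = 0.331). Without the 5 libraries Acsl4 rose by 1.08 (SE 0.19, edgeR adjusted p = 0.051), while Fabp5 gave 0.96 (SE 0.22, edgeR adjusted p = 0.114). Fabp3 was the member that separated the groups downward (5.66% of genes did), with 22.9, 19.1 and 16.5 CPM in SOD-CCI. Its log2FC was -2.59 (SE 0.72, edgeR adjusted p = 0.266). Without the 5 libraries, SOD-CT replicate 1 among them, Fabp3 fell by 1.37 (SE 0.30, edgeR adjusted p = 0.0944). The difference in Cd36, -2.28 (SE 0.90, edgeR adjusted p = 0.316), shrank to -0.69 (SE 0.41) in the same way, and without SOD-CT replicate 1 alone it was -0.69. Acsl6 gave -0.80 (SE 0.39) and -0.83 (SE 0.19, edgeR adjusted p = 0.107).

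In FOD rats, no member and none of 14484 genes was called between FOD-CCI and FOD-CT in edgeR (0% called), and 1 member, Fabp5, was among the 654 genes (4.52%) with an unadjusted p under 0.05; DESeq2 called 21 genes and 0 members. Fabp5 had a log2FC of 1.27 (SE 0.43), and 1.33 (SE 0.34, edgeR adjusted p = 0.193) without the 5 libraries. Acsl6 was at 179.8, 129.8 and 152 CPM in FOD-CT, above 52.02 to 61.5 CPM in FOD-CCI replicates 2 to 4 and below the 191 CPM of replicate 1. The log2FC of Acsl6 was -0.74 (SE 0.38) with all libraries. Without FOD-CCI replicate 1 Acsl6 fell by 1.42 (SE 0.20, edgeR adjusted p = 0.049), when 43 of 14620 genes (0.294%) were called. FOD-CT kept its own spinal cord library in that fit. Without the spinal cord libraries of both groups edgeR called 0 of 14688 genes, so the call of Acsl6 depended on which libraries were left out. Acsl4 was at 78.2, 81.4 and 69.8 CPM in FOD-CT (log2FC 0.73, SE 0.35), and gave 1.12 (SE 0.29, edgeR adjusted p = 0.193) without the 5 libraries. Acsl1, the most even member, was at 90.04, 109.8 and 101.5 CPM in FOD-CT and 69.8, 78.7, 73.9 and 73.7 CPM in FOD-CCI. The groups did not overlap for Acsl1, as for 2.54% of genes in this direction, although its log2FC of -0.41 (SE 0.33) did not pass the test, nor did that of -0.38 (SE 0.37) without FOD-CCI replicate 1.

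**Figure D3:**
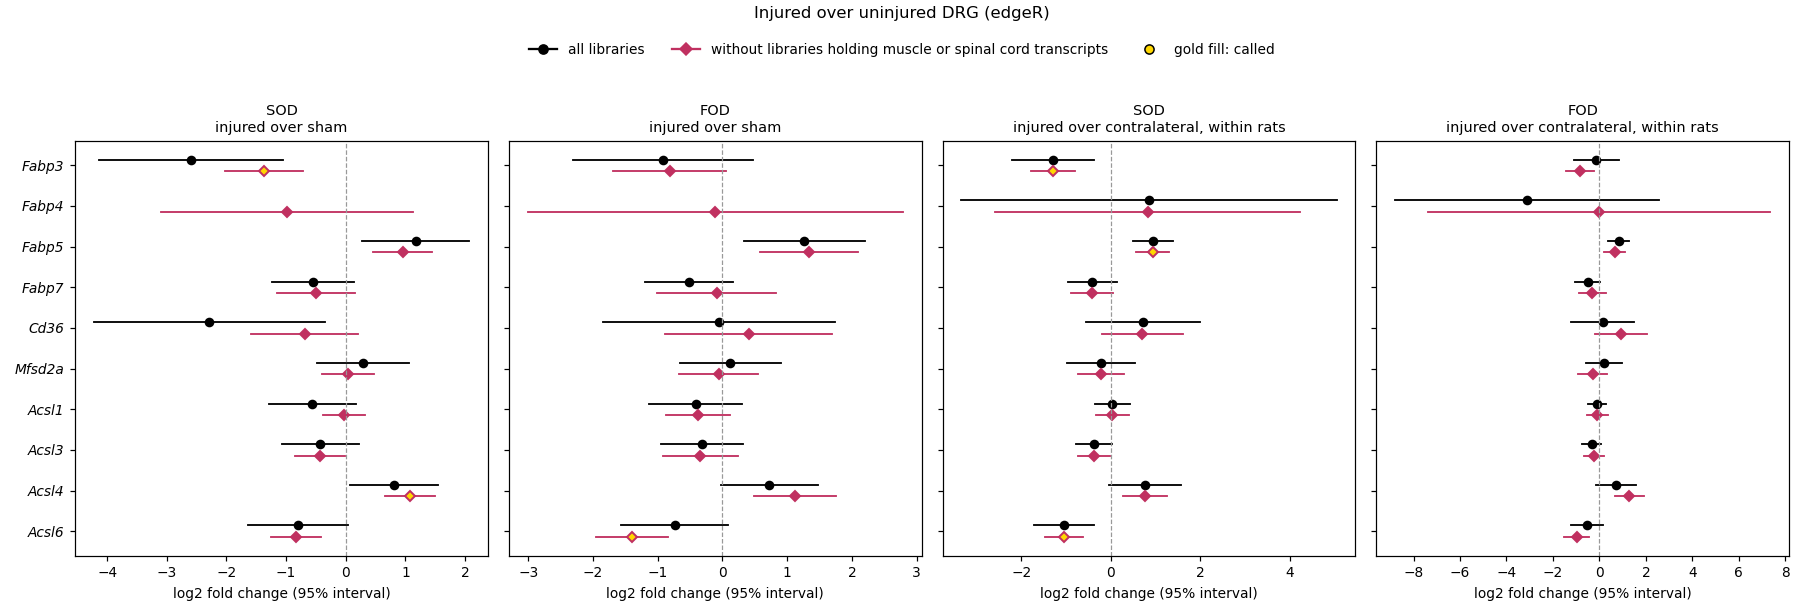
Log2 fold change with 95% interval of injured over sham DRG (first 2 panels) and of injured over contralateral DRG of the same rats (last 2 panels) for each member, with all libraries (black circles) and without those highest in muscle or spinal cord transcripts (red diamonds; gold fill: called). Fabp5 and Acsl4 lie right of 0 and Acsl6 left of 0 in all 4 panels under both settings. With all libraries Fabp3, Fabp7 and Acsl3 also lie left of 0 in all 4 panels.

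The left and right DRG of the same 6 rats allowed the injury comparison within animals. Fabp5 was higher on the injured side in 6 of 6 rats, by 1.962, 2.01 and 2.01 times in SOD rats and by 2.13, 1.38 and 1.82 times in FOD rats. The 2.13 came from the rat with spinal cord transcripts in both DRG, which compares unlike tissue. Its sensory neuron markers averaged 3.55 log2 CPM on the right and 8.52 on the left, and Atf3 was at 3.27 CPM on the left. The log2FC of Fabp5 was 0.94 (SE 0.20, edgeR adjusted p = 0.185) in SOD and 0.82 (SE 0.20, edgeR adjusted p = 0.522) in FOD. Fabp5 was thus above the right side in every SOD rat together with 25% of genes, and in every FOD rat together with 11.4%. edgeR called no member on either side comparison, against 19 of 14549 genes in SOD (0.117% higher and 0.0137% lower) and 2 in FOD (0.0137% higher); 3 members in SOD and 1 in FOD had an unadjusted p under 0.05, as did 8.48% and 6.96% of genes. DESeq2 called 472 genes (3.24%) in SOD and 264 (1.81%) in FOD, and Fabp5 rose in both (adjusted p = 0.000852 and 0.0116). Without the rat whose left and right DRG held spinal cord transcripts, edgeR called 471 of 14992 genes (3.14%) in SOD, and among them Fabp5 rose by 0.94 (adjusted p = 0.0249).

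Leaving out this rat, which was fed fish oil, also called Acsl6 and Fabp3 downward in SOD rats. No SOD library was left out, and the fit shares its filter and its estimate of the spread across both diets. Acsl6 was at 109, 162 and 161 CPM on the right of SOD rats, against 75.4, 64.8 and 73.6 CPM on the left. It was 0.69, 0.4 and 0.456 times the right side, a fall of 1.05 on the log2 scale (edgeR adjusted p = 0.0288, without the spinal cord rat; 0.325 with it). In FOD rats Acsl6 was at 153, 124 and 102 CPM on the right and 1.25, 0.496 and 0.52 times that on the left, the first being the spinal cord rat. Fabp3 was at 65.1, 43.3 and 33.9 CPM on the right of SOD rats and 0.352, 0.44 and 0.488 times that on the left. In SOD rats it fell by 1.296 on the log2 scale (edgeR adjusted p = 0.022 without the spinal cord rat; 0.39 with it). In FOD rats Fabp3 was 2.44, 0.743 and 0.433 times the right side, and the log2FC was -0.13 (SE 0.43) with and -0.82 (SE 0.27, edgeR adjusted p = 0.269) without the spinal cord rat.

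Acsl4 was above the right side in 5 of 6 rats, by 1.52, 1.94 and 1.85 times in SOD and 1.62 and 3.72 times in FOD, and at 0.7 times the right side in the spinal cord rat. The log2FC of Acsl4 was 0.77 (SE 0.36) in SOD and 0.71 (SE 0.37) in FOD. Without the spinal cord rat it was 0.76 (SE 0.22, edgeR adjusted p = 0.15) and 1.29 (SE 0.28, edgeR adjusted p = 0.11). Acsl3 and Fabp7 were lower on the left in 6 of 6 rats, the spinal cord rat among them (in every rat of a diet, 16% of genes were in SOD and 11.7% in FOD). Their log2FC were between -0.34 and -0.51 and did not pass the test in either diet. Cd36 was higher on the left in 4 of 6 rats, by up to 3.49 times.

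**Figure D4:**
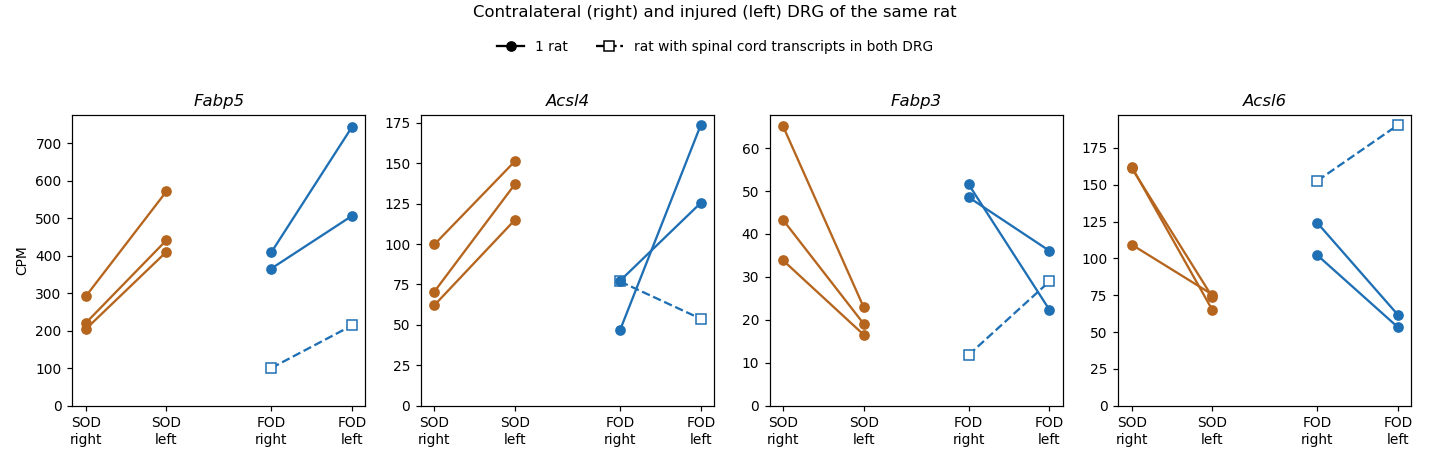
CPM of Fabp5, Acsl4, Fabp3 and Acsl6 in the contralateral (right) and injured (left) DRG joined within each of 6 rats (brown: SOD; blue: FOD; dashed line with open squares: the rat with spinal cord transcripts in both DRG). Fabp5 is higher on the left in all 6 rats, and the dashed rat runs against the other 5 in Acsl4, Fabp3 and Acsl6.

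Marker levels also differed between the injured and contralateral libraries. A list of 10 nerve injury genes, added after the data were seen, averaged 5.99 to 7.81 log2 CPM in the 6 injured libraries outside the spinal cord set, and 2.48 to 3.27 in the 5 contralateral libraries outside it. Macrophage markers averaged 3.89 to 5.65 and 0.88 to 3.98 log2 CPM in the same libraries, and took 0.0207% to 0.0713% and 0.00367% to 0.0248% of counts. Sensory neuron markers averaged 8.59 to 9.35 and 9.12 to 9.55 log2 CPM. In sham libraries the nerve injury list averaged 0.41 to 5.15 log2 CPM in SOD-CT and 2.98 to 4.80 in FOD-CT. The part of these lists in the differences of Fabp5, Acsl4 and Acsl6 was not tested. Of the 9 macrophage markers, Cd163, Cd68, C1qb and Ptprc were at 0 in at most 2 libraries and the rest in none. Adipocyte markers (6 of 6 found) were low but not absent. Lep had no counts in 18 libraries and Plin1 and Retn none in 16, whereas Cfd was detected in all, at 0.525 to 34.3 CPM. Adipoq was highest, at 18.7 CPM, in SOD-CT replicate 1, the library with the highest Fabp4, and Retn (15.5 CPM) and Cfd in FOD-CCI replicate 2, the library with the highest Fabp4 and Cd36 of its group. Plin1 had no counts in either library. Retn had none in SOD-CT replicate 1, and Lep none in FOD-CCI replicate 2, where Adipoq was at 1.41 CPM. Cidec was highest, at 8.19 CPM, in FOD-CCI replicate 3. The part of adipocytes in the levels of Fabp4 and Cd36 was not tested.

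No interaction of diet with injury or side passed the test. The interaction of diet with injury was between -0.17 and 2.23 for the 9 members on the log2 scale, with the highest values for Cd36 (2.23, SE 1.22) and Fabp3 (1.68, SE 0.94), both with an edgeR adjusted p of 0.894. Both shrank without the 5 libraries, to 1.09 (SE 0.72) and 0.55 (SE 0.52). For Fabp5, the interaction was 0.09 (95% interval -1.18 to 1.37) with injury and -0.12 (-0.75 to 0.51) with side. For Acsl4 these were -0.08 (-1.13 to 0.96) and -0.06 (-1.22 to 1.11), and for Acsl6 0.06 (-1.11 to 1.23) and 0.51 (-0.44 to 1.46). Without FOD-CCI replicate 1 the interaction with injury turned to -0.62 for Acsl6 (-1.21 to -0.03; edgeR adjusted p = 0.71), and was 0.36 (-0.72 to 1.43) for Fabp5 and 0.17 (-0.65 to 0.98) for Acsl4. Without the rat of that library, the interaction with side was 0.07 (-0.61 to 0.74) for Acsl6, -0.28 (-0.86 to 0.30) for Fabp5 and 0.53 (-0.26 to 1.32) for Acsl4. No member was called in either interaction, nor any of 14484 and 14549 genes (0% called in edgeR; 725 genes or 5.01% and 424 genes or 2.91%, with 0 members, at an unadjusted p under 0.05). DESeq2 called 42 and 60 genes and 0 members, with the adjusted p of 8 of the 9 members not given for the interaction with injury.

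The composition of the 2 families followed from these levels. Of the summed FPKM of the 4 binding proteins, Fabp5 made up 81.2% to 82.4% in SOD-CCI and 54.55% to 64.75% in the contralateral DRG of the same rats. In FOD-CCI it made up 74.5% to 88.3% outside replicate 1, where it was 55.8%. Fabp7 was below Fabp5 in every library outside the spinal cord set other than SOD-CT replicate 1, and reached 69.9% in FOD-CCI-contralateral replicate 1 and 56.1% in FOD-CT replicate 1. SOD-CT replicate 1 was the sole library in which Fabp3 (35.8%) and Fabp4 (36.2%) led. Among the synthetases, Acsl4 made up 8.37% to 13.4% in sham DRG and 21.4% to 27.9% in SOD-CCI. Acsl6 made up 35.2% to 43.8% on the contralateral side of SOD rats and 21.8% to 26.4% on the injured side. These shares depend on the other members and give the differences above in another form.

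**Figure D5:**
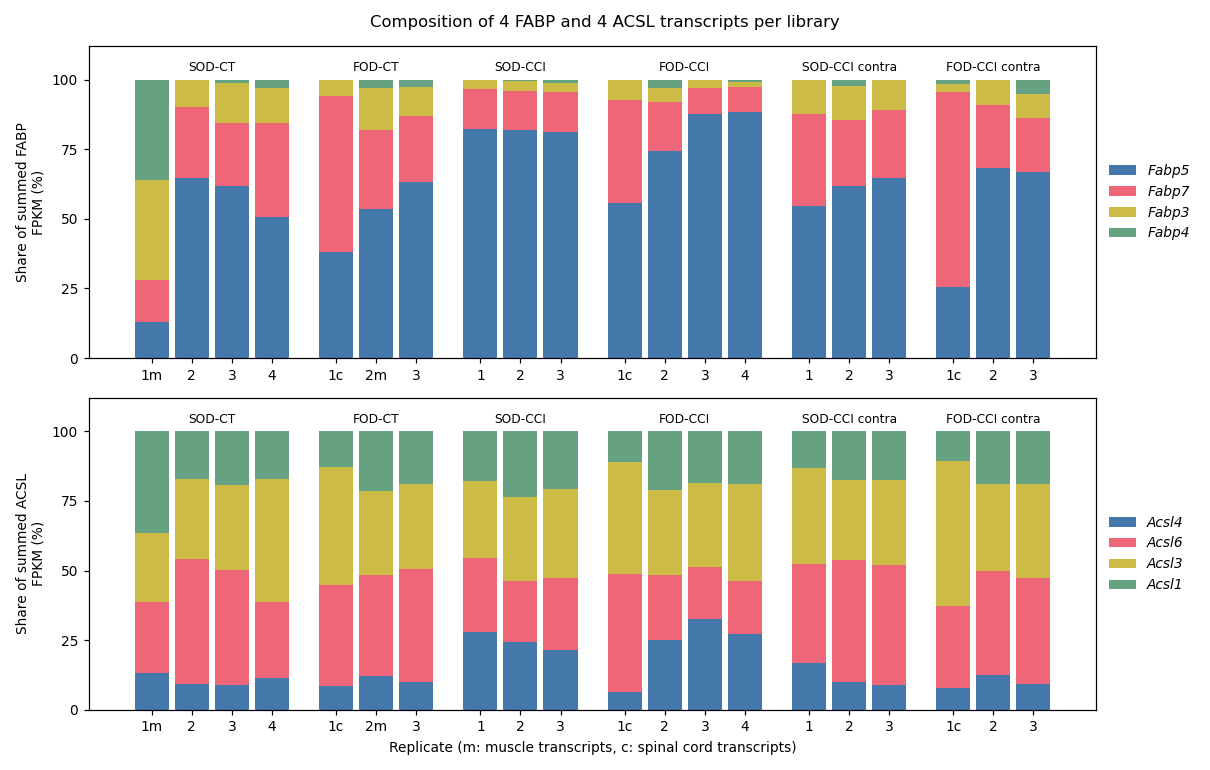
Share of each gene in the summed FPKM of 4 fatty acid-binding proteins (top) and 4 acyl-CoA synthetases (bottom) in every library, by group and replicate (m: muscle transcripts; c: spinal cord transcripts). Fabp5 makes up over 81% of the binding proteins in the 3 SOD-CCI libraries and 12.8% in SOD-CT replicate 1.

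Other genes of fatty acid handling were read from a list of 51, of which 32 passed the filter in left DRG, 29 in contralateral DRG and 32 in the side comparisons. None was called in any comparison in edgeR, with all libraries or without those with other tissue. The 3 with the smallest p in sham DRG were the bubblegum acyl-CoA synthetase Acsbg1 (log2FC 1.15, SE 0.42), the thioesterase Acot9 (-0.44, SE 0.22) and Acsf3 (0.53, SE 0.28). These were 0.37 (SE 0.31), -0.28 (SE 0.28) and 0.08 (SE 0.32) without the 5 libraries. In injured DRG they were the sterol carrier Scp2 (0.43, SE 0.24), Acsbg1 (0.58, SE 0.43) and the acyl-CoA-binding protein Dbi (0.38, SE 0.28), which became 0.38 (SE 0.19), 0.10 (SE 0.22) and 0.52 (SE 0.26) in the same way. In contralateral DRG they were Acsf2 (1.07, SE 0.50), the myelin fatty acid-binding protein Pmp2 (1.21, SE 0.57) and lipoprotein lipase Lpl (0.94, SE 0.52), and without the spinal cord library 0.29 (SE 0.35), 0.76 (SE 0.52) and 0.70 (SE 0.52). With all libraries, their edgeR adjusted p lay between 0.546 and 0.965. Between SOD-CCI and SOD-CT, 1 gene of the 32 had an unadjusted p under 0.05 upward, the acetyl-CoA synthetase Acss2 (0.71, SE 0.22), and 2 downward, Lpl (-2.12, SE 0.73) and Acot13 (-1.86, SE 0.71). Acss2 was at 0.66 (SE 0.22), Lpl at -1.03 (SE 0.53) and Acot13 at -0.73 (SE 0.30) without the 5 libraries, and between the sides of SOD rats Lpl was at 0.03 (SE 0.36) and Acot13 at -0.08 (SE 0.46). Acss2 was also the gene with such a p between FOD-CCI and FOD-CT (0.48, SE 0.22), and was at 0.63 (SE 0.32) without the 5 libraries. Between sides, 0 genes of the list had such a p upward in either diet with all libraries. Without the spinal cord rat Acss2 was at 0.37 (SE 0.20) between the sides of SOD rats and 0.41 (SE 0.25) in FOD rats.

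The genes whose log2 CPM followed each member most closely are given as a description, since libraries share diet, injury and tissue admixture. Over 20 libraries, Fabp3 was nearest to Gyg1 (Pearson r 0.96), which starts glycogen synthesis, and to the muscle and proprioceptor gene Pvalb (0.91). Over the other 15 libraries its nearest gene was Clcn4 (0.96). Fabp5 followed Hn1 (0.96) over 20 libraries and Qdpr (0.98) and Rhoc (0.97) over 15. Acsl6 followed Sorl1 (0.93) over 20, and over 15 Sema7a (0.98), the neurofilament gene Nefl (0.97) and Hapln4 (0.97). Acsl4 followed Pdcl3 (0.92) over 20 and Mvd (0.96), an enzyme of the mevalonate pathway, over 15. Acsl3 was nearest to Agt (0.95) over 20 libraries and to Kcnk1 (0.88) over 15, and Fabp7 to Spock3 (0.87) and Atp5h (0.95). Acsl1 followed the mitochondrial fatty acid oxidation gene Acadvl (0.85) over 20 and Dtna (0.89) over 15. Cd36 was nearest to Myl12a (0.89) over 20 libraries and to Cmtm7 (0.92) over 15. Mfsd2a was nearest to Setdb1 (0.93) over 20 libraries and to Srp68 (0.79) over 15. Among members, Fabp4 was nearest to Cd36 of all genes over 20 libraries (0.83), and the pair kept an r of 0.81 over 15. Over 15 libraries the genes nearest to Fabp4 were H19 (0.86) and Des (0.85). Over those 15 libraries Acsl6 ran opposite to Fabp5 (-0.87) and to Acsl4 (-0.83), and Fabp5 ran with Acsl4 (0.78).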

How the data were processed

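RNA-seq counts per gene were deposited by the authors for 20 libraries, with fastp, HISAT2 and featureCounts 1.5.0-p3 named in the submitters' processing notes; replicates were not pooled. The authors' FPKM values were found to equal counts divided by gene length and by DESeq2 size factors, so FPKM served only to compare genes with each other. Which build was aligned to, whether strand was used and how reads shared by near-identical genes were counted is not given in the sources used here, which leaves members of these families and genes with overlapping or antisense neighbors uncertain. CPM were computed here from the total counts. The members and lists were chosen with earlier results of these data known. The 10 members were named in every comparison; of the other fatty acid genes, those called and the 3 with the smallest p per diet comparison were named, as were the genes most correlated with a member. Some further genes with an unadjusted p under 0.05 were named after their values were seen.

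Genes were retained where 10 or more counts were seen in 90% of the libraries in a fit. edgeR 4.0.16 (R 4.3.3; TMM, two-sided quasi-likelihood test, Benjamini–Hochberg adjustment over all genes) was fitted to the 14 left DRG with one mean per group, to the 6 contralateral DRG, and to the 12 DRG of 6 rats with the rat as a block. Calls needed an adjusted p no higher than 0.1 with a 1.2-fold difference or more. The study used DESeq2, which was run here as an alternative (1.42.0), along with RLE scaling, no filter, pairs of groups alone, replicate blocks and libraries left out; DESeq2 without the muscle and spinal cord libraries was added after the data were seen, as were the other fatty acid genes without these libraries. Left and right DRG of a rat carry the same animal number, and their deviations from group means correlated at 0.142 to 0.430 in SOD and 0.114 to 0.360 in FOD rats. Same-numbered libraries of FOD-CCI and FOD-CT, from different rats, also deviated together (0.192 to 0.429). Each fit was run on simulated data with known changes, at a lower dispersion than that estimated from these libraries and without tissue admixture. This checks the coding of the fits and cannot show how many changes would be found at the spread of these data. Rats are separate animals, and the spread between them set the precision.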

Additional observations from a re-analysis of the deposited data

Results flagged for a closer look

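A library far from the other 3 of its group was found in 6 of 20 sets of 4 values (10 members in SOD-CT and in FOD-CCI). The measure was the gap to its nearest neighbor relative to the whole range, against Dixon's 95% limit for 4 samples. Chance alone flags about 1 in 20 independent sets. These sets share the libraries of SOD-CT and FOD-CCI, so their flags are not independent and cannot be counted against that rate. In SOD-CT these were replicate 1 for Fabp3 (199.9 CPM, the highest), for Fabp4 (170.5 CPM, the highest) and for Mfsd2a (5.09 CPM, the lowest). In FOD-CCI they were replicate 1 for Mfsd2a (42.6 CPM, the highest), for Acsl3 (195.0 CPM, the highest) and for Acsl6 (191 CPM, the highest). The first library is the one in which muscle markers took 12.7% of counts, and the second holds spinal cord transcripts and little Atf3 (3.27 CPM). Groups of 3 were not examined in this way.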

How the results depend on the processing

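No diet or interaction comparison called a member under any alternative. Blocking on the replicate number left the members called at 0 between sham and injured DRG and between diets, and dropping the rat block left them at 0 between sides; the pairing changed no call of a member, and added 1 gene in SOD-CCI against SOD-CT, but turned Fabp5 between FOD-CCI and SOD-CCI to -0.0677. Over all genes the rat block took calls between sides from 0 to 19 in SOD and 2 in FOD. In SOD-CCI against SOD-CT the members called were 2 with DESeq2, 2 without the muscle and spinal cord libraries and 4 with both (5.25% of genes called). In FOD-CCI against FOD-CT they were 1 without the muscle and spinal cord libraries and 3 with DESeq2 as well (3.78% of genes), both against a lone FOD-CT library assumed to vary like the other groups, and ran from 0 to 1 with a replicate left out, 1 being without FOD-CCI replicate 1. In the side comparison of SOD rats they were 3 with DESeq2, 3 without the spinal cord rat and 4 with both (7.52% of genes), and ran from 0 to 3 with a replicate left out, 3 being without FOD-CCI replicate 1; in FOD rats they were 1 with DESeq2 and 3 without the spinal cord rat as well (6.27% of genes). The causes were not tested. Genes called with a replicate left out ran from 0 to 471 between sides in SOD, 0 to 137 in FOD, 0 to 17 in contralateral DRG, and 0 to 47 and 0 to 43 for injury in SOD and FOD.

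The log2FC below changed sign between diets under some setting, with no call. In FOD-CT against SOD-CT, leaving out a replicate gave -0.46 to 0.26 for Acsl1, -0.11 to 0.30 for Acsl4, -1.92 to 0.0355 for Cd36, -1.83 to 0.0344 for Fabp3 (both highest without SOD-CT replicate 1) and -0.0668 to 0.46 for Fabp5. Without the muscle libraries Acsl1 was 0.12 and Fabp5 -0.27; DESeq2 and RLE scaling gave -0.0143 for Acsl4. Without muscle and spinal cord libraries, edgeR and DESeq2 gave 0.25 and 0.24 for Acsl1, -0.0215 and -0.035 for Acsl3, -0.20 and -0.21 for Fabp7, and -0.0069 and -0.0195 for Mfsd2a. In FOD-CCI against SOD-CCI, leaving out a replicate gave -0.27 to 0.19 for Acsl4, -0.29 to 0.57 for Acsl6 and -0.11 to 0.42 for Mfsd2a. Without the spinal cord libraries, without both kinds, and with DESeq2 without both, Acsl4 was 0.19, 0.19 and 0.20, Acsl6 -0.30, -0.29 and -0.28, and Mfsd2a -0.11, -0.11 and -0.10. In contralateral DRG, leaving out a replicate gave -0.19 to 0.0676 for Acsl1, -0.14 to 0.73 for Acsl3, -0.39 to 0.0201 for Acsl4, -0.65 to 0.0944 for Fabp3 and -0.034 to 0.72 for Fabp5. Without the spinal cord library, edgeR and DESeq2 gave 0.02 and 0.0344 for Acsl1, -0.14 and -0.12 for Acsl3, and 0.0944 and 0.10 for Fabp3.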
